A study of Homo sapiens with 12 samples.

Results

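The DNA replication and S-phase genes described here are 47 genes chosen by symbol for their roles in DNA synthesis. All 47 symbols were found among the 13937 genes of the expression table, and all 47 passed the filter on low values, which left 13894 genes. The cells were WI-38, a human fibroblast line started from embryonic lung, grown in medium with serum and transfected by lipofection. The 12 libraries made 6 groups of 2. Control cells received the control siRNA siAS alone. YT cells received siAS with siRNAs against YAP and TAZ, the coactivators of the Hippo pathway, encoded by YAP1 and WWTR1. The cGAS and STING cells received siAS with siRNAs for cGAS, which senses DNA in the cytosol, or for STING, the adaptor that cGAS signals through. Sample names mark the cGAS and STING siRNAs as sicGAS4x and siSTING4x, without further detail. In cGAS_YT cells the YAP and TAZ siRNAs were joined with cGAS siRNA, and in STING_YT cells with STING siRNA. Every group was therefore transfected and none was left untreated, and the time from transfection to harvest is not given in the sources used here. All cells are 1 line. The labels do not tie the replicates to separate cultures, so the p-values reflect the spread among these libraries alone, and that spread may be technical.

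A cell duplicates its genome once per cycle. In G1 the origin recognition complex, CDC6 and CDT1 load the MCM2 to MCM7 helicase onto origins, a step called licensing. At the G1 to S transition, cyclin E and E2F activity start a gene program that supplies the helicase activators, polymerases, deoxynucleotides and histone chaperones needed for the fork. Most of these genes are known E2F targets, and their transcripts are abundant in cycling fibroblasts and scarce in arrested ones. YAP and TAZ are known to promote the entry of fibroblasts into S phase.

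Expression was given as CPM, the read count scaled to library size, from 3' end sequencing, in which each transcript gives about 1 fragment, so no length correction applies. Library totals recovered from the table ran from 17790774 to 20650727 reads. The targeted transcripts were low where the labels name them. In YT, cGAS_YT and STING_YT cells YAP1 stood at 13.4%, 21.1% and 13.1% of its control level, and the figures for WWTR1 were 14.2%, 13.2% and 8.70%. MB21D1, the gene of cGAS, was at 23.6% in cGAS and 18.7% in cGAS_YT cells, and TMEM173, the gene of STING, at 7.39% in STING and 6.66% in STING_YT cells. In the cGAS and STING groups WWTR1 was at 68.9% and 72.4% of control. MB21D1 was also at 64.4% in STING and 61.4% in STING_YT cells, where the control libraries stood apart at 9.60 and 6.14 CPM. All 10 fibroblast markers were in the table, summing to 32911 to 33501 CPM in control, 26837 to 28517 in YT, 23052 to 24013 in cGAS, 23007 to 26069 in cGAS_YT, 30103 to 30305 in STING and 34089 to 36780 in STING_YT libraries. Of these 10 the numbers called lower and higher were 1 and 0 in YT against control, beside 20.9% and 20.6% of all genes. They were 3 and 2 in cGAS against control, beside 14.3% and 11.1%. In cGAS_YT against cGAS they were 0 and 5, beside 12.7% and 15%. Against YT they were 1 and 6 in cGAS_YT, beside 20.2% and 20.5%, and 0 and 4 in STING_YT, beside 18.0% and 16%. The median change of the 10 markers in cGAS_YT against YT was 0.44, beside 0.00 over all genes. VIM was called lower in YT (-0.79 ± 0.13) and cGAS (-0.47 ± 0.13) against control. The endothelial markers PECAM1, CDH5, VWF and KDR, the immune markers PTPRC, LYZ, CD3E and MS4A1, and the epithelial markers EPCAM, CDH1, KRT5, KRT14 and CLDN4 were not among the genes listed. The smooth muscle and pericyte markers MYH11, RGS5 and CSPG4 summed to 75.2 to 84.3 CPM in control, 76.5 to 89.4 in YT, 90.3 to 99.7 in cGAS, 95.7 to 96.9 in cGAS_YT, 71.3 to 72.5 in STING and 64.7 to 72.3 in STING_YT libraries. In YT against control RGS5 rose (1.84 ± 0.20), while MYH11 (-0.09 ± 0.26) and CSPG4 (-0.21 ± 0.12) were not called. MYH11 rose in cGAS against control (1.07 ± 0.26) and in cGAS_YT against cGAS (1.59 ± 0.26), where RGS5 rose as well (0.67 ± 0.20), and their interactions with cGAS were of opposite sign (1.68 ± 0.37 and -1.17 ± 0.28), both called. KRT15, the 1 epithelial marker listed, was at 1.25 to 2.44 CPM in control, 0.317 to 0.617 in YT, 1.031 to 1.94 in cGAS, 0.415 to 1.56 in cGAS_YT, 4.52 to 4.77 in STING and 0.813 to 1.28 in STING_YT libraries, and was called lower in YT against control (-0.93 ± 0.30), higher in STING against control (1.02 ± 0.30) and lower in STING_YT against STING (-1.47 ± 0.30) and in cGAS against STING (-1.21 ± 0.30). The immune list, through CD68 and CD14, summed to 3.83 to 6.56 CPM. The part of these markers in the results below was not tested. Replicates correlated at 0.987 or more across genes on the log2(CPM + 1) scale, and the YT libraries stood furthest apart. Changes below are differences of log2(CPM + 1) ± SE from a limma fit of all 12 libraries, with 2 libraries per group and p-values adjusted by Benjamini-Hochberg over all 13894 genes. A gene is called lower or higher at an adjusted p below 0.05. The shares of all genes given above and below are for these limma calls or for libraries that do not overlap. Counts at an unadjusted p stand without such a share, so they are not set against a background. The same holds for counts by edgeR and DESeq2, except in the interaction with cGAS, where totals over all genes are given. This scale understates the change of weakly expressed genes, so the percentage of the control mean, from plain CPM, is given as well.

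The YAP and TAZ siRNAs alone were compared with control to ask what their depletion does to the replication program. Of the 47 genes 44 were called lower and none higher, against 20.9% and 20.6% of all genes tested that were called lower and higher. Of these calls 34 were falls by 1 or more on the log2(CPM + 1) scale, against 5.04% of all genes. The median change was -1.33, beside 0.00 over all genes tested. The median level was 33.9% of control, with a range from 6.04% (EXO1) to 81.4% (RFC2). In 46 of the 47 genes both YT libraries lay below both control libraries, an arrangement seen in 32.0% of all genes, and GINS3 alone overlapped. At an unadjusted p under 0.05 in limma none was higher and 46 were lower, and edgeR and DESeq2 on the recovered reads each called 43 lower and none higher. Together the 47 genes summed to 1028 and 1125 CPM in the control libraries and to 495 and 498 CPM in the YT libraries. In bulk RNA, fewer cells in S phase and less of these transcripts per cell cannot be told apart.

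**Figure D1:**
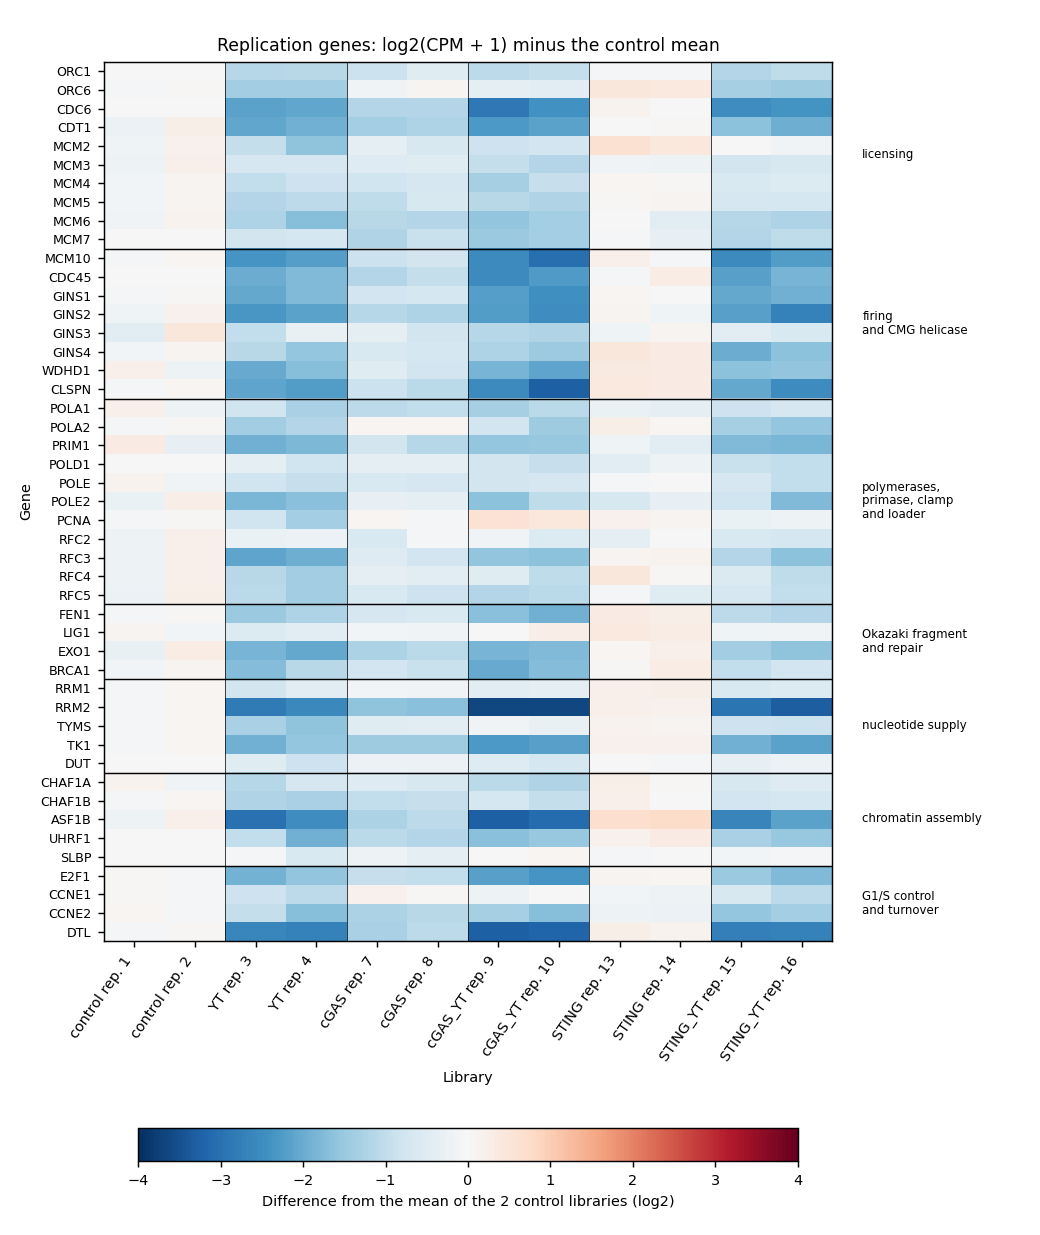
Heat map of the 47 replication genes (vertical axis, grouped by role) in the 12 libraries (horizontal axis); color is log2(CPM + 1) minus the mean of the 2 control libraries. The YT, cGAS_YT and STING_YT columns are mostly blue (lower), the cGAS columns are paler, the STING columns are near white, and PCNA is red in the cGAS_YT columns.

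All 10 licensing genes were called lower. CDC6, the loader that brings the helicase to the origin recognition complex (chromosome 17, 40287633 to 40304657, GRCh38), was at 12.6 and 12.5 CPM in the control libraries and 2.06 and 2.21 CPM in the YT libraries. Its YT level was 17.0% of control and its change -2.11 ± 0.20 (adjusted p = 2.96e-07). CDT1, its partner in loading, stood at 13.8 and 19.3 CPM in control and 3.06 and 3.60 CPM in YT libraries, a change of -2.001 ± 0.20. ORC1 and ORC6, subunits of the recognition complex, fell to 19.2% and 32.1% of control. CDC6, CDT1 and ORC1 thus kept a smaller share of control than any of the 6 helicase subunits, which lay between 32.4% (MCM6) and 60.3% (MCM3). ORC6, at 32.1%, lay beside MCM6. These differences between genes were not tested. MCM7 (chromosome 7, 100092728 to 100101940, GRCh38) was at 69.7 and 71.2 CPM in control and 41.7 and 42.8 CPM in YT libraries, a change of -0.72 ± 0.12 (adjusted p = 0.000155). MCM2 was at 15 and 19.5 CPM in control and 8.40 and 4.89 CPM in YT libraries, a change of -1.29 ± 0.20. The smallest change among licensing genes was that of MCM3, -0.67 ± 0.16, and it was not called without control replicate 2 (-0.47, adjusted p = 0.058).

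The next 8 genes act in origin firing, in the active helicase or at the fork, and are called firing genes below. Of these 7 were called lower, with a median change of -1.89. MCM10, which helps switch on the loaded helicase, went from 10.1 and 11.5 CPM in control to 1.27 and 1.54 CPM in YT libraries (-2.29 ± 0.22, adjusted p = 3.7e-07), or 13.05% of control. CDC45, which joins MCM2 to MCM7 and the GINS complex in the active helicase, went from 6.49 and 6.65 CPM to 0.898 and 1.23 CPM. CLSPN, which encodes the fork adaptor claspin, went from 24.1 and 26.8 CPM to 5.12 and 4.63 CPM. In these 3 genes the control and YT libraries did not overlap. The levels kept by the 4 GINS subunits varied. GINS2 fell to 12.9% and GINS1 to 19.2% of control, GINS4 to 34.1%, and GINS3 was not called (-0.65 ± 0.30). The GINS3 values were 2.02 and 4.77 CPM in control and 1.11 and 2.37 CPM in YT libraries, and these overlap. GSE1 overlaps the 3' end of GINS2 on the opposite strand, and the strand setting of the counting is not given in the sources used here, so reads of such pairs may be mixed.

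Among the 11 polymerase, primase, clamp and clamp loader genes 10 were called lower. PCNA, the sliding clamp (chromosome 20, 5114953 to 5126626, GRCh38), was at 83.2 and 90.2 CPM in control and 49.5 and 33.2 CPM in YT libraries, a change of -1.08 ± 0.13 (adjusted p = 8.21e-06). POLE2, the accessory subunit of the leading strand polymerase, fell to 14.2% of control, whereas the catalytic subunit POLE fell to 50.02%. PRIM1, the primase that starts each new strand, went from 6.75 and 3.98 CPM to 0.634 and 0.772 CPM. Its 3' end overlaps NACA on the same strand, and the split of reads between them is uncertain. The clamp loader subunits also varied. RFC3 went from 8.46 and 11.3 CPM to 1.48 and 1.80 CPM (-2.03 ± 0.21), RFC4 and RFC5 fell to 35.5% and 36.2% of control, and RFC2 was not called (-0.25 ± 0.22) at 7.84 and 10.7 CPM in control and 7.50 and 7.56 CPM in YT libraries. The 3' ends of RFC4 and RFC5 overlap EIF4A2 and WSB2 on the opposite strand. POLD1, the catalytic subunit of the lagging strand polymerase, was called (-0.59 ± 0.23, adjusted p = 0.0462) but was low everywhere, at 1.87 and 1.93 CPM in control and 1.22 and 0.669 CPM in YT libraries. It was not called by edgeR or DESeq2 (adjusted p = 0.101 and 0.156), nor without control replicate 1, control replicate 2 or YT replicate 4 (adjusted p = 0.109, 0.139 and 0.301).

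FEN1, the flap endonuclease of Okazaki fragment processing, fell from 32.1 and 34.9 CPM to 11.4 and 13.6 CPM, a change of -1.35 ± 0.14. LIG1, the ligase that seals these fragments, fell from 13.96 and 11.8 CPM to 8.51 and 9.06 CPM (-0.50 ± 0.15), and it was not called without control replicate 1 (adjusted p = 0.112). EXO1, an exonuclease of mismatch repair, had the lowest remaining level of the 47 genes at 6.04% of control, with 0.317 and 0.154 CPM in YT libraries against 2.85 and 4.94 CPM. BRCA1, a recombination factor, stood at 33.9% of control.

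All 5 genes of deoxynucleotide supply were called lower, over a wide range. RRM2, the regulatory subunit of ribonucleotide reductase (chromosome 2, 10120698 to 10131419, GRCh38), went from 44.9 and 50.4 CPM in control to 5.86 and 7.10 CPM in YT libraries. It kept 13.6% of control (-2.70 ± 0.16, adjusted p = 1.33e-09). RRM1, the catalytic subunit of the same enzyme, went from 212 and 238 CPM to 134 and 169 CPM and kept 67.3%. Thymidylate synthase, TYMS (chromosome 18, 657604 to 673578, GRCh38), went from 44.0 and 49.3 CPM to 18.2 and 14.5 CPM, and the thymidine kinase TK1 from 26.3 and 29.6 CPM to 6.66 and 8.90 CPM. The dUTPase gene DUT fell to 63.5% of control. TYMS overlaps ENOSF1 at its 3' end on the opposite strand.

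ASF1B, a chaperone that hands histones H3 and H4 to the assembly factor CAF-1, had the lowest change of the 47 on the log2(CPM + 1) scale (-2.74 ± 0.23), from 14.4 and 19.3 CPM to 1.22 and 2.16 CPM. The CAF-1 subunits CHAF1A and CHAF1B fell to 51.8% and 30.4% of control, and UHRF1, which brings maintenance methylation to new DNA, to 26.8%. UBXN6 overlaps the 3' end of CHAF1A on the opposite strand. SLBP, which binds the stem loop of histone mRNA, was measured at 27.9 and 28.4 CPM in control and 26.4 and 18.0 CPM in YT libraries and was not called (-0.35 ± 0.15); YT replicate 3 lay close to control. All 4 genes of G1 to S control were called lower. DTL, a substrate receptor of the ubiquitin ligase that removes CDT1 in S phase (chromosome 1, 212035553 to 212107400, GRCh38), went from 13.96 and 15.1 CPM to 1.53 and 1.39 CPM, or 10.1% of control. E2F1, the transcription factor, went from 8.77 and 8.01 CPM to 1.53 and 2.16 CPM. Of the cyclin E genes CCNE1 fell to 44.8% and CCNE2 to 15.3% of control. CCNE2 was listed at 0 in YT replicate 4, which allows up to 0.154 CPM (3 reads; counting error only), and at 2.44 and 2.05 CPM in control libraries. Its 3' end overlaps INTS8 on the opposite strand.

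**Figure D2:**
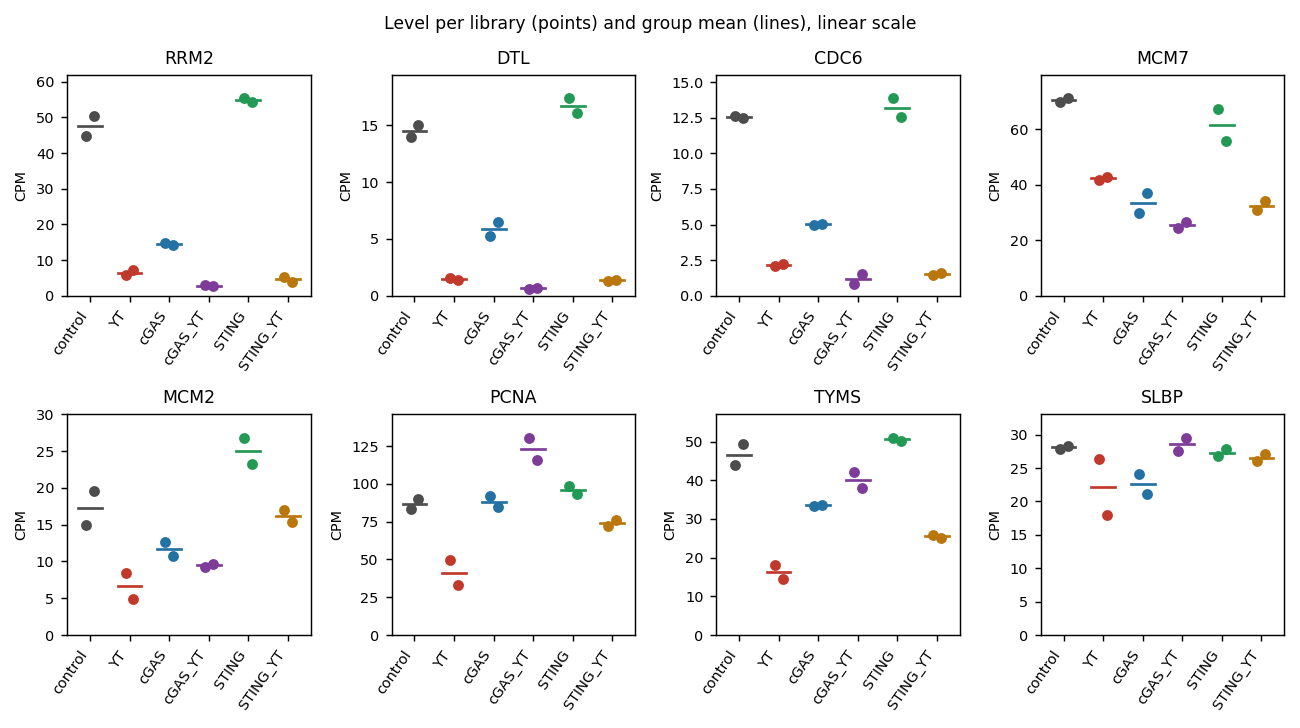
Level in CPM (vertical axis, linear, from 0) of 8 genes in each of the 6 groups (horizontal axis); points are the 2 libraries and lines their mean. RRM2, DTL and CDC6 are lowest in cGAS_YT, YT and STING_YT cells, PCNA is highest in cGAS_YT cells at 131 and 116 CPM, and SLBP spans only 18.0 to 29.6 CPM over the 12 libraries.

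The promoter windows of the genes, 250 bases before to 50 after a start site from RefSeq on GRCh38.p14, were described by their letters. They were searched for 4 E2F-like heptamers and for CCAAT, each on both strands, where matches may overlap. The heptamer TTCCCGC was found in 23 genes, the heptamer TTGGCGC in 13, the heptamer TTCGCGC in 10 and the heptamer TTGCCGC in 1. Windows were found for 43 of the 47 genes; MCM4, MCM5, GINS4 and CCNE2 had none. At least 1 heptamer lay in a window of 35 of these 43 genes (81.4%), against 24.9% of 9719 tested genes with a window and 12.97% of all 35116 windows. CCAAT lay in 25 of 43 (58.1%), against 43.2% of tested genes and 34.6% of all windows. A gene may have several windows, so shares of genes and shares of windows are unlike measures. Most of the 47 genes are known E2F targets, so a high share of heptamers follows from the choice of genes. Any part of these letters in the falls was not tested. The windows of DTL and CDC6, which kept 10.1% and 17.0% of control in YT cells, are printed with those of PCNA, which was lower in YT cells and highest in cGAS_YT cells, and SLBP, which was not called. They are written 5' to 3' on the gene's strand, with matches in capitals (E2F-like heptamers of 7 letters and CCAAT of 5, or their reverse complements).
DTL, chr1:212035498-212035797, plus strand: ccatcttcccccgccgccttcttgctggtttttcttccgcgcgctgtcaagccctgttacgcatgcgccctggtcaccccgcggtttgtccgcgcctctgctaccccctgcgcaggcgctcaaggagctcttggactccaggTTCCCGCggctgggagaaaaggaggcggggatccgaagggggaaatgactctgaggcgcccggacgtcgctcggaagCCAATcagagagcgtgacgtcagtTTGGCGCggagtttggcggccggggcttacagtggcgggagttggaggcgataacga
CDC6, chr17:40287629-40287928, plus strand: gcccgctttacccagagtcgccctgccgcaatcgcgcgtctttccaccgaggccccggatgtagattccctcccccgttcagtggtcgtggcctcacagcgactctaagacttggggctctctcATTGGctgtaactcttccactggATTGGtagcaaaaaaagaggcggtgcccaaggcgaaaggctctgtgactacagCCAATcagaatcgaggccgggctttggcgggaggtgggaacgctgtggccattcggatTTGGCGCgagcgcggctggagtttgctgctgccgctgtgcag
PCNA, chr20:5126573-5126872, minus strand: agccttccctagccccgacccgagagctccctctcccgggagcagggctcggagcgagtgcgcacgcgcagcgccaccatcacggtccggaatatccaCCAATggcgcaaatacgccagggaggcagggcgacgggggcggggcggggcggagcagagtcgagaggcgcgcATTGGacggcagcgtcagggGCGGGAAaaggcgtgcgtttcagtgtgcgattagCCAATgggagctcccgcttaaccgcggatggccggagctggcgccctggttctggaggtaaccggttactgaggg
SLBP, chr4:1712270-1712569, minus strand: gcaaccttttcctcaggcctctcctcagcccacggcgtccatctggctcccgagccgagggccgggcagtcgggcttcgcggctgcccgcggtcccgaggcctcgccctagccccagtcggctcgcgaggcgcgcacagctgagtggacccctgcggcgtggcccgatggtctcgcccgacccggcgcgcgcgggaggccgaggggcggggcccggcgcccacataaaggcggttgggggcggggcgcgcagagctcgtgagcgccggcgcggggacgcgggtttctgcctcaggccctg
The DTL window holds 2 heptamers and 1 CCAAT, that of CDC6 holds 1 and 3, and the PCNA window printed holds 1 and 3. A second PCNA window, chr20:5119909-5120208, holds no such heptamer and 2 CCAAT. The SLBP window holds neither; CCNE1, FEN1, POLD1, ASF1B, CDC45, MCM10 and ORC6 also have no E2F-like heptamer in their windows, and of these ASF1B and MCM10 were among the genes that fell furthest. A match is a description of the letters and not of binding.

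With cGAS siRNA alone many of these genes were also lower than control. The comparison gives the background on which YAP and TAZ were depleted in cGAS_YT cells. Of the 47 genes 33 were called lower, against 14.3% of all genes tested, and none higher, against 11.1% (also none at an unadjusted p under 0.05 in limma, and none by edgeR or DESeq2, which each called 32 lower). The median change was -0.73, beside -0.02 over all genes, and the median level was 55.8% of control. In 41 genes both cGAS libraries lay below both control libraries, as in 34.2% of all genes. RRM2 was at 14.8 and 14.2 CPM (-1.65 ± 0.16, adjusted p = 1.37e-06), TK1 at 9.75 and 9.87 CPM (-1.42 ± 0.16) and CDT1 at 5.82 and 6.38 CPM (-1.29 ± 0.20) in the cGAS libraries. MCM7 stood at 29.9 and 37.2 CPM after cGAS siRNA (-1.06 ± 0.12, beside -0.72 ± 0.12 after YAP and TAZ siRNAs, with the same control libraries). PCNA (92.1 and 84.6 CPM, 0.03 ± 0.13), ORC6 (9.81 and 11.8 CPM, -0.01 ± 0.16), POLA2 (0.08 ± 0.21) and CCNE1 (0.11 ± 0.20) were not called. Of the polymerase, clamp and loader genes 5 of 11 were called, beside 8 of 10 licensing genes and 7 of 8 firing genes. Leaving out 1 library turned the 33 calls into 22 to 29.

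After STING siRNA alone 1 of the 47 genes passed the test. ASF1B was called higher (27.4 and 28.3 CPM, 0.71 ± 0.23, adjusted p = 0.0465) and no gene was called lower, against 6.14% and 8.86% of all genes called higher and lower. At an unadjusted p under 0.05 in limma 6 genes were higher and none lower, and edgeR and DESeq2 each called 1 higher and none lower. The ASF1B call was lost when any of the 4 libraries was left out (adjusted p from 0.0541 to 0.312). The median level was 107% of control, from 64.1% (POLE2) to 165% (ASF1B), and RRM2 stood at 55.4 and 54.2 CPM and MCM2 at 26.8 and 23.3 CPM. Tested directly, with no shared control, cGAS cells had 35 of the 47 genes lower than STING cells, against 17.6% of all genes, with a median of -0.79. None was higher, against 16% of all genes, nor at an unadjusted p under 0.05 in limma, nor by edgeR or DESeq2. ASF1B (-1.86 ± 0.23), RRM2 (-1.85 ± 0.16) and TK1 (-1.59 ± 0.16) differed most.

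**Figure D3:**
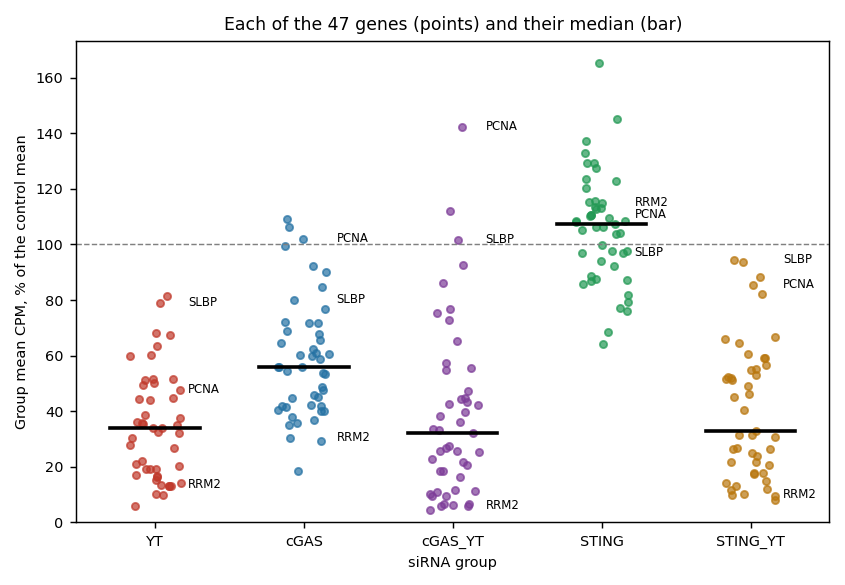
Group mean CPM as a percentage of the control mean (vertical axis, linear, from 0; dashed line at 100%) for the 47 genes (points) in the 5 other siRNA groups (horizontal axis); black bars are medians and horizontal scatter is arbitrary. The medians are 33.9% in YT, 55.8% in cGAS, 32.2% in cGAS_YT, 107% in STING and 32.9% in STING_YT cells, and PCNA lies at 142% in cGAS_YT cells.

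Adding YAP and TAZ siRNAs to STING siRNA lowered most of the replication genes. STING_YT was compared with STING to ask what YAP and TAZ depletion does in cells with STING siRNA. Of the 47 genes 41 were called lower and none higher, against 19.8% and 19.1% of all genes (none higher also at an unadjusted p under 0.05 in limma, and by edgeR and DESeq2, with 40 lower each). The median change was -1.04, and 46 genes had both STING_YT libraries below both STING libraries, as did 35.6% of all genes. RRM2 went to 5.39 and 3.96 CPM (-3.31 ± 0.16, adjusted p = 3.64e-10), ASF1B to 1.83 and 2.998 CPM (-3.10 ± 0.23) and DTL to 1.33 and 1.37 CPM (-2.91 ± 0.19). The firing genes again had a lower median (-2.17) than the licensing genes (-0.93). MCM2 was at 16.9 and 15.4 CPM (-0.60 ± 0.20) and MCM4 at 19.9 and 21.0 CPM (-0.62 ± 0.14), both called; the MCM2 call was lost without STING replicate 13, STING_YT replicate 15 or STING_YT replicate 16. PCNA fell to 72.1 and 75.8 CPM (-0.37 ± 0.13, adjusted p = 0.0382), and this call was lost without any 1 of the 4 libraries (adjusted p from 0.0862 to 0.183). Not called were GINS3, POLA1 (-0.42 ± 0.20), POLE2 (-0.79 ± 0.31), RFC2, DUT (-0.25 ± 0.11) and SLBP (-0.04 ± 0.15). SLBP libraries overlapped, at 26.8 and 27.8 CPM in STING and 26.0 and 27.1 CPM in STING_YT cells.

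In cells with cGAS siRNA the YAP and TAZ siRNAs lowered 24 of the 47 genes. In this comparison, cGAS_YT against cGAS, 12.7% of all genes were called lower. PCNA alone was called higher, against 15% of all genes. The median change was -0.56, and 41 genes had both cGAS_YT libraries below both cGAS libraries, as did 30.2% of all genes. The genes called lower included 7 of the 8 firing genes (median -1.35), such as MCM10 at 0.992 and 0.467 CPM (-1.99 ± 0.22) and CLSPN at 3.49 and 1.76 CPM (-1.93 ± 0.21). They also included RRM2 at 2.88 and 2.85 CPM (-2.002 ± 0.16), ASF1B at 0.850 and 1.09 CPM (-2.02 ± 0.23) and DTL at 0.614 and 0.674 CPM (-2.06 ± 0.19, adjusted p = 7.65e-07). DTL in these cells was at 4.44% of control, the lowest of the 47 genes there.

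Of the 10 licensing genes 4 were called in this background. CDC6 (-1.48 ± 0.20), CDT1 (-0.94 ± 0.20), MCM3 (-0.57 ± 0.16) and MCM7 (-0.38 ± 0.12) were called, the last at 24.3 and 26.7 CPM, and MCM2, MCM4, MCM5, MCM6, ORC1 and ORC6 were not. The MCM3 and MCM7 calls were each lost when 1 of 3 libraries was left out. The MCM2 values were 12.7 and 10.7 CPM in cGAS and 9.26 and 9.70 CPM in cGAS_YT libraries. PCNA was the gene called higher, from 92.1 and 84.6 CPM to 131 and 116 CPM (0.48 ± 0.13, adjusted p = 0.0142), and it stood at 142% of control. Its call was lost without cGAS replicate 8 (adjusted p = 0.12) or cGAS_YT replicate 9 (adjusted p = 0.11). TYMS was at 33.2 and 33.7 CPM in cGAS and 42.2 and 38.1 CPM in cGAS_YT libraries, LIG1 at 11.7 and 11.4 CPM and 13.03 and 15.8 CPM, and SLBP at 24.0 and 21.1 CPM and 27.5 and 29.6 CPM in the same order. In these 3 genes the cGAS_YT libraries lay above the cGAS libraries, but the differences (0.25 ± 0.12, 0.29 ± 0.15 and 0.33 ± 0.15) were not called.

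**Figure D4:**
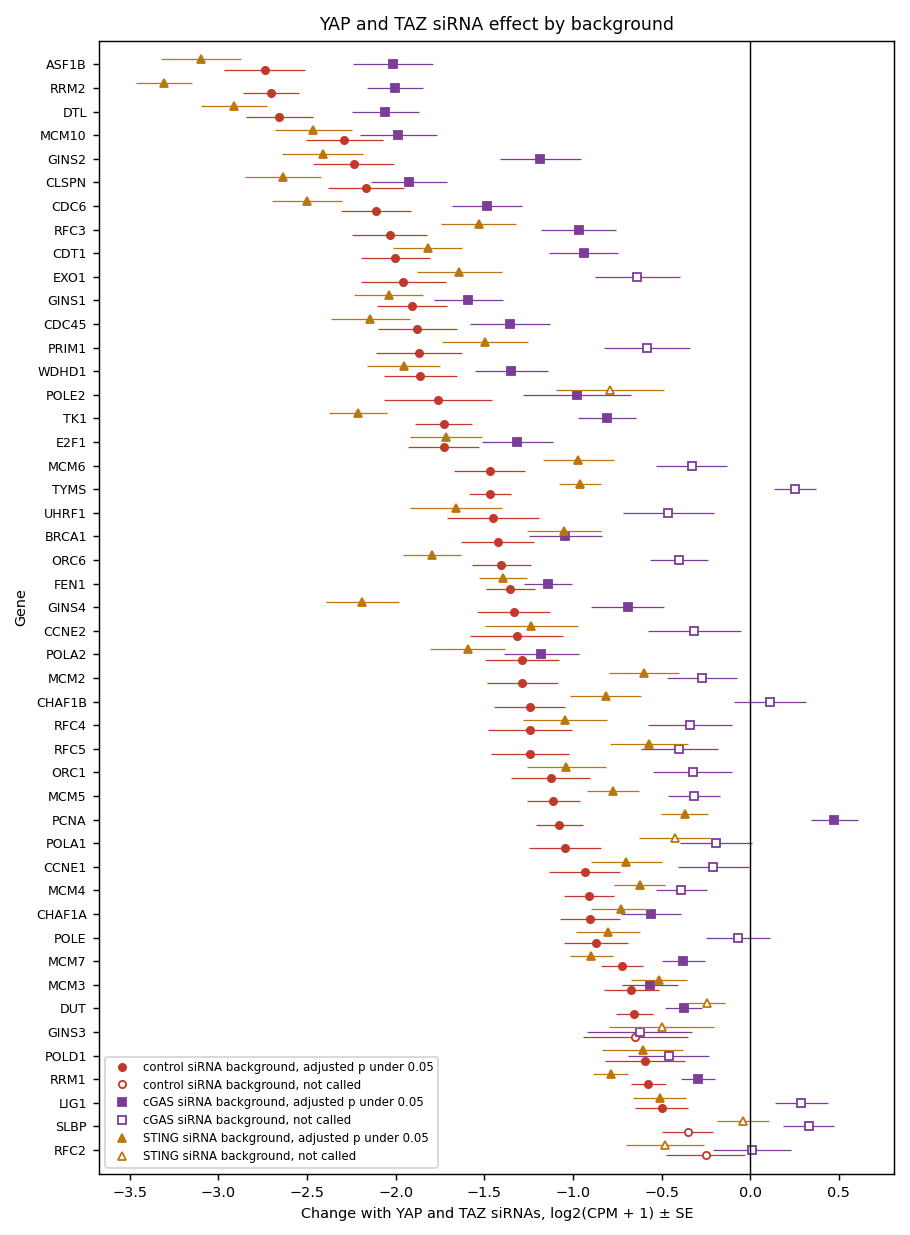
Change with YAP and TAZ siRNAs (horizontal axis, log2(CPM + 1) ± SE) of each of the 47 genes (vertical axis, ordered by the change in the control background) in cells with control, cGAS or STING siRNA; filled symbols passed an adjusted p of 0.05. On this scale, which compresses weakly expressed genes, the cGAS background lies to the right of the control background for every gene, by 0.02 (GINS3) to 1.72 (TYMS). In the cGAS background PCNA, TYMS, LIG1 and SLBP lie right of 0 by 0.25 or more.

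The difference between backgrounds was tested as an interaction, over 8 libraries. With cGAS it was positive, meaning a smaller fall or a rise in cGAS_YT against cGAS, for 17 of the 47 genes and negative for none, against 7.50% of all genes called positive and 5.93% called negative. At an unadjusted p under 0.05 in limma 29 were positive and none negative, a count with no share of all genes beside it. By edgeR and DESeq2 14 and 13 were called positive and none negative, beside 1753 and 1836 of all genes called in either direction. The median was 0.72, beside 0.02 over all genes. The count moved with the pseudocount, to 14 at 0.25 and 23 at 4. For weakly expressed genes the sign depended on the scale as well. In plain CPM the MCM10 means went from 10.8 to 1.41 in the control background and from 5.78 to 0.729 in the cGAS background. The GINS3 means went from 3.40 to 1.74 and from 1.90 to 0.864. Neither gene kept a larger share of its CPM in the cGAS background. TYMS had the largest interaction (1.72 ± 0.17, adjusted p = 3.65e-06), then PCNA (1.55 ± 0.19, adjusted p = 3.47e-05), CHAF1B (1.36 ± 0.28) and EXO1 (1.32 ± 0.34). MCM6 (1.14 ± 0.28), CDT1 (1.06 ± 0.28), ORC6 (1.004 ± 0.23) and TK1 (0.92 ± 0.23) also passed. The count depended on single libraries. It rose without YT replicate 3 and fell when any other 1 of the 8 libraries was left out, the least without YT replicate 4. Of the groups, YT had the replicates that stood furthest apart. TYMS, PCNA and CHAF1B passed whichever library was left out and under every other setting tried, and the other 14 of the 17 genes lost their call without at least 1 library. EXO1 was also not called by edgeR or DESeq2 (adjusted p = 0.0546 and 0.0505). For 44 of the 47 genes the cGAS mean was below control, and for the median gene the level reached in cGAS_YT cells, 32.2% of control, stands beside 33.9% in YT cells.

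The interaction with STING was called for PCNA (0.71 ± 0.19, adjusted p = 0.0305) and no other gene, against 3.35% of all genes called positive and 4.53% negative. At an unadjusted p under 0.05 in limma 7 genes were positive and 2 negative. The PCNA call was kept without YT replicate 3 or YT replicate 4 and lost without any other 1 of the 8 libraries (adjusted p from 0.0623 to 0.115). The count was 9 without YT replicate 3 (6 positive and 3 negative), 2 without YT replicate 4 (1 positive and 1 negative) and 0 without any of the 6 other libraries. Both interactions use the same YT and control libraries.

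Within YAP- and TAZ-depleted cells, cGAS_YT was compared with YT to ask what cGAS siRNA adds. Here the genes split: 5 were called higher and 8 lower, against 20.5% and 20.2% of all genes called in those directions, so neither count exceeds the background. The higher genes were PCNA (131 and 116 against 49.5 and 33.2 CPM, 1.58 ± 0.13), TYMS (42.2 and 38.1 against 18.2 and 14.5 CPM, 1.25 ± 0.12), ORC6 (0.99 ± 0.16), CCNE1 (0.83 ± 0.20) and LIG1 (0.65 ± 0.15). Among the 47 genes 15, these 5 included, had both cGAS_YT libraries above both YT libraries, 15 had them below and 17 overlapped. The share of all genes with such an arrangement is not given here. The lower genes were RRM2 (-0.95 ± 0.16), CLSPN (-0.74 ± 0.21), MCM7 (-0.71 ± 0.12), DTL (-0.58 ± 0.19), CDC6 (-0.54 ± 0.20), E2F1 (-0.53 ± 0.20), TK1 (-0.50 ± 0.16) and FEN1 (-0.44 ± 0.14). Of these 8, RRM2 and MCM7 kept their call whichever library was left out and the other 6 did not. The number called lower was 4 without YT replicate 4, 5 without cGAS_YT replicate 9 and 4 without cGAS_YT replicate 10. RRM2 and TYMS, which act in the same supply of deoxynucleotides, moved in opposite directions. RRM2 was at 5.86 and 7.10 CPM in YT and 2.88 and 2.85 CPM in cGAS_YT libraries. RRM1, the catalytic subunit of the reductase, did not follow RRM2. It was at 134 and 169 CPM in YT and 168 and 170 CPM in cGAS_YT libraries, which overlapped, and was not called.

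In STING_YT against YT 6 genes were called higher and 1 lower, against 16% and 18.0% of all genes. MCM2 (16.9 and 15.4 against 8.40 and 4.89 CPM, 1.20 ± 0.20), PCNA (0.85 ± 0.13), TYMS (0.62 ± 0.12), RFC3 (0.62 ± 0.21), MCM5 (0.42 ± 0.15) and DUT (0.38 ± 0.11) were higher and MCM7 (-0.37 ± 0.12) was lower. Of these 7 calls those of MCM5, RFC3, DUT and MCM7 were lost when 1 library was left out. Both comparisons share the YT libraries. These libraries differed in PCNA and MCM2, with replicate 3 above replicate 4 in each. Set against each other, with no shared libraries, cGAS_YT had 4 genes higher and 13 lower than STING_YT, against 19.7% and 17.2% of all genes. ORC6 (8.12 and 7.73 against 3.72 and 3.46 CPM, 0.96 ± 0.16), CCNE1 (0.75 ± 0.20), PCNA (0.73 ± 0.13) and TYMS (0.63 ± 0.12) were higher, and BRCA1 (-0.99 ± 0.21), ASF1B (-0.78 ± 0.23), MCM2 (-0.71 ± 0.20) and FEN1 (-0.69 ± 0.14) were among the lower. This count of 17 was 10 without cGAS_YT replicate 9, 10 without cGAS_YT replicate 10, 9 without STING_YT replicate 15 and 9 without STING_YT replicate 16, and 5 of the 17 calls were kept under every setting tried.

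Genes around the replication program were counted from lists of related function. In YT against control 20.9% of all genes tested were called lower and 20.6% higher, with a median of 0.00. In YT against control 28 of 40 other replication factors were lower and 2 higher (median -0.57), among them FAM111B (-2.41 ± 0.22), the ribonuclease subunit RNASEH2A (-1.64 ± 0.17) and the PCNA unloader ATAD5 (-2.05 ± 0.22). Of 23 other nucleotide supply genes 16 were lower and 2 higher (median -0.62), among them NME1 (-1.56 ± 0.13), the purine synthesis enzyme PAICS (-1.38 ± 0.12) and the CTP synthase CTPS1 (-1.003 ± 0.12). Of 29 fork checkpoint and recombination genes 23 were lower and 1 higher (median -0.92), with BARD1 (-1.62 ± 0.12), RAD51AP1 (-2.38 ± 0.19) and RMI2 (-1.64 ± 0.17). Of 28 G1/S regulators 15 were lower and 5 higher, with the transcription factor MYBL2 (-2.59 ± 0.19), the kinase CDK6 (-1.18 ± 0.09) and SKP2 (-1.65 ± 0.14), which targets the inhibitor p27. All 30 G2 and mitosis genes were lower (median -2.64, beside -1.33 for the replication genes), among them TOP2A (-2.80 ± 0.11), TPX2 (-2.95 ± 0.13) and CENPF (-2.65 ± 0.12). In cGAS against control, where 14.3% of all genes were called lower and 11.1% higher, the counts were 12 lower and 3 higher of 40 replication factors, 5 and 2 of 23 nucleotide genes, 9 and 0 of 29 checkpoint genes, 11 and 3 of 28 regulators and 30 and 0 of 30 mitosis genes. The 5 lower of 23 nucleotide genes and the higher counts lie near or under those shares. In STING against control, with 8.86% of all genes lower and 6.14% higher, they were 0 lower and 1 higher, 0 and 2, 0 and 1, 6 and 4, and 0 and 2 in the same order.

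Enzymes of nucleotide synthesis were followed through the cGAS comparisons. After cGAS siRNA NME1 (0.10 ± 0.13), PAICS (0.18 ± 0.12) and CTPS1 (0.29 ± 0.12) were not called, and adding the YAP and TAZ siRNAs lowered all 3 (-1.42 ± 0.13, -0.94 ± 0.12 and -0.997 ± 0.12), with no called interaction (0.14 ± 0.18, 0.44 ± 0.17 and 0.01 ± 0.18). BARD1, the partner of BRCA1, and RMI2 had positive interactions with cGAS (1.48 ± 0.18 and 1.23 ± 0.24) and with STING (0.60 ± 0.18 and 1.26 ± 0.24). Genes named from the lists, HIST1H4C below included, were chosen by a small p in YT against control. That comparison enters both interactions, so the choice favors a positive sign for genes that fell there. The interactions with cGAS and STING also share the YT and control libraries. RAD51AP1 had no called interaction with cGAS (0.68 ± 0.27) or STING (-0.45 ± 0.27). Of the 29 fork checkpoint and recombination genes 10 had a called positive interaction with cGAS, against 7.50% of all genes. With STING 2 did, BARD1 and RMI2, against 3.35%, and none had a negative one. The interaction with cGAS was also called in other lists. It was positive for 11 and negative for 1 of 30 G2 and mitosis genes (median 0.74, beside 0.72 for the 47 genes). Positive and negative counts were 6 and 1 of 40 other replication factors, 6 and 2 of 28 G1/S regulators and 1 and 1 of 23 other nucleotide supply genes. All genes were called positive in 7.50% and negative in 5.93%. For STING the counts were 0 and 4, 0 and 2, and 1 and 0 in the same order, against 3.35% and 4.53% of all genes. No G2 and mitosis gene was called there. FAM111B had called interactions of opposite sign, 1.24 ± 0.31 with cGAS and -1.14 ± 0.31 with STING. Of 23 histone genes whose symbols start with HIST1H to HIST4H, 8 were lower and 2 higher in YT cells (median -0.25), beside the 20.9% and 20.6% of all genes. HIST1H4C was lower (-1.40 ± 0.13), was lower after cGAS siRNA (-0.88 ± 0.13) and was not called in cGAS_YT against cGAS (0.00 ± 0.13), with a called interaction (1.40 ± 0.18). Replication-dependent histone mRNAs end in a stem loop and not a poly(A) tail, and their copies are near identical, so these values are uncertain.

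Heptamers of 3' UTRs that an earlier analysis of these data had linked to lower values after cGAS siRNA (GCATTCA) or STING siRNA (GTCATAT) were looked up in the replication genes. GCATTCA was present in 2 of 47 genes (4.26%), MCM6 and CCNE2, against 12.5% of 11661 tested genes with a 3' UTR in GENCODE release 29. In cGAS against control the median change was -1.17 for these 2 genes and -0.67 for the other 45. In cGAS_YT against YT it was -0.10 and -0.12. Over all tested genes with a 3' UTR, the medians with and without the heptamer were -0.138 and -0.00899 in cGAS against control. They were -0.108 and 0.0239 in cGAS_YT against YT. The heptamer had been picked from these same data, and a median of 2 genes rests on too little to compare. Its part in the changes of the 47 genes was therefore not tested. GTCATAT was present in GINS1 alone (2.13%), against 10.4% of tested genes.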

How the data were processed

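RNA from 12 WI-38 libraries in 6 siRNA groups of 2 was sequenced from transcript 3' ends. The deposited signal values are gene counts that the authors scaled, per the submitters' processing notes, which list STAR 2.5.3a, featureCounts, edgeR and hg38. They are CPM on edgeR's scaled library sizes, as the values show: 100% were whole reads within 0.01 read once divided by the worth of 1 read. Recovered totals ran from 17790774 to 20650727 reads per library, and 3 reads, the limit that a count of 0 allows, are worth 0.142 to 0.170 CPM (counting error only). The sources used here do not give the annotation release or the strand setting.

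The filter asked for 1 CPM or more in 2 or more libraries and left 13894 of 13937 genes. The values were taken to log2(CPM + 1) and fitted with limma 3.58.1 in R 4.3.3 (all 12 libraries, 1 mean per group, empirical Bayes with trend). The 11 comparisons were adjusted by Benjamini-Hochberg, each over all 13894 genes, at a threshold of 0.05. edgeR 4.0.16 (quasi-likelihood) and DESeq2 1.42.0 on the recovered reads, other pseudocounts, filters, scalings and priors, a fit of only the groups compared, and each library left out were tried as alternatives. The steps were tested on simulated data. The planned test had assumed CPM values, and no change was needed. The members and the gene lists were chosen with earlier results of these data known. Replicate numbers are unique to each library. Any member could be named; for the interactions the 8 with the smallest p past the threshold were, and from each other list up to 3 genes with the smallest p in YT against control.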

Additional observations from a re-analysis of the deposited data

Results flagged for a closer look

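The effect of the YAP and TAZ siRNAs differed between backgrounds by the test of the difference itself, the limma interaction with Benjamini-Hochberg adjustment over all genes tested. Between the cGAS and the control background 17 of the 47 replication genes differed, all in the positive direction, with 2 libraries per group, against 7.50% of all genes called positive and 5.93% negative. The difference was 1.72 for TYMS, 1.55 for PCNA, 1.36 for CHAF1B, 1.32 for EXO1, 1.14 for MCM6, 1.06 for CDT1, 1.004 for ORC6 and 0.92 for TK1 on the log2(CPM + 1) scale. Of these 8 genes TYMS, PCNA and CHAF1B kept their call whichever library was left out, while EXO1, MCM6, CDT1, ORC6 and TK1 lost it without at least 1 library, and EXO1 also by edgeR and DESeq2 (adjusted p = 0.0546 and 0.0505). Between the STING and the control background 1 gene differed, PCNA, by 0.71, against 3.35% of all genes called positive and 4.53% negative; it lost its call without any 1 of 6 of the 8 libraries. Groups of 2 libraries allow no test for outlying samples.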

How the results depend on the processing

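No direction of a called replication gene reversed under any setting tried. Of the calls, those kept under every setting were 41 of 44 in YT against control, 20 of 33 in cGAS against control, 17 of 25 in cGAS_YT against cGAS, 33 of 41 in STING_YT against STING, 25 of 35 in cGAS against STING, 7 of 13 in cGAS_YT against YT, 3 of 7 in STING_YT against YT, 5 of 17 in cGAS_YT against STING_YT, 3 of 17 interactions with cGAS, and 0 of 1 each in STING against control and the interaction with STING. With only the groups compared in the fit the counts became 3 for STING against control (1 with all 12 libraries), 7 for cGAS_YT against YT (13), 3 for STING_YT against YT (7), 10 for the interaction with cGAS (17) and 0 for the interaction with STING (1). A pseudocount of 0.25 gave 0 for STING against control, and a constant prior gave 0 for the interaction with STING. Leaving out 1 library at a time gave 0 to 0 for STING against control, 5 to 22 for the interaction with cGAS, 0 to 9 for that with STING and 9 to 10 for cGAS_YT against STING_YT (17). Fits with fewer libraries have fewer degrees of freedom; beyond that the cause was not tested. No paired analysis was possible because each replicate number occurs in 1 library only. Genes near 1 CPM, such as POLD1 and CCNE2, rest on few reads, and the pseudocount compresses their changes.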
